A study of Mus musculus with 10 samples.

Results

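The 5 miRNAs of the miR-200 family, with miR-375 and miR-205, were followed in livers of Tsc1 mutant mice and in control livers. These miRNAs mark epithelial cells. Every row of the deposited expression table was taken whose name, without species prefix and arm, was miR-200a, miR-200b, miR-200c, miR-141, miR-429, miR-375 or miR-205. Each name matched 1 row, which gave 7 of the 285 miRNAs in the table. Small RNA was sequenced from 10 liver samples of mice aged 14 weeks, 5 from littermate controls and 5 from Tsc1 mutants (L-Tsc1KO). Tsc1 encodes a subunit of the TSC complex, a brake on mTORC1 signalling. The labels name neither the promoter of the recombinase nor the strain, and no treatment. The samples are bulk liver, so more cells of a type and more RNA per cell cannot be told apart.

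The libraries held between 6228497 and 12129069 miRNA reads, and the genotypes differed by less than the spread of libraries (2-sided exact permutation p = 0.484, n = 5 each). The hepatocyte miRNA miR-122 ranked 1 of 285 by mean level. The Tsc1 transcript is not covered by these data, and the knockout itself was therefore not checked. Across all 285 miRNAs, limma called 31 higher and 6 lower in mutants. Control replicate 2 stood apart from the other libraries in the miRNAs described here, so genotype differences are given with and without it.

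The miR-200 family is known for holding cells in an epithelial state. Its members repress the transcription factors ZEB1 and ZEB2, which shut off E-cadherin, and these factors in turn repress the miR-200 genes. In liver the family is known to be abundant in the epithelium of the bile ducts and low in hepatocytes. The islet cells of the pancreas are the best known source of miR-375, and miR-205 is typical of stratified epithelia such as skin.

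A miRNA finds its targets mainly through its seed, the bases 2 to 8 counted from the 5′ end, so the members are shown grouped by seed. The deposited names carry no arm. The sequences are those of the arm that the older, unmarked name stands for, from RefSeq (GRCm38.p6), with the seed in capitals. RefSeq sequences were matched for 6 of the 7 miRNAs, and miR-375 is named only.
miR-200b: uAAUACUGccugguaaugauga
miR-200c: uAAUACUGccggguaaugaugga
miR-429: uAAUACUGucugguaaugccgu
miR-200a: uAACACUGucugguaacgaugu
miR-141: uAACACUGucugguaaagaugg
miR-205: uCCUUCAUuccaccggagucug

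The seed splits the family into 2 groups. Among 1738 mature mouse miRNAs in the RefSeq table, the seed AAUACUG was held by 3, which are miR-200b, miR-200c and miR-429. The seed AACACUG was held by 2, miR-200a and miR-141. The groups differ within the seed at 1 base, written C4U from miR-200a to miR-200b. Outside the seed, miR-200b and miR-200c differ at U11G and A22G over the first 22 bases, and miR-200a and miR-141 at C17A and U22G. How reads that could belong to either of such a pair were assigned is not given in the sources used here, so the split between close members is uncertain to that extent. The seed of miR-205 was held by no other mature miRNA in that table.

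The gene order cuts across the seeds. In GRCm38 the hairpins of miR-429, miR-200a and miR-200b lie together on the minus strand of chromosome 4, between 156053905 and 156055750, a span of 1846 bases. They sit in an intron of the protein-coding gene Ttll10 and overlap the processed transcript Gm13648, in an exon for miR-429 and in introns for the other members. On the minus strand of chromosome 6, the hairpins of miR-141 and miR-200c lie between 124717914 and 124718390, a span of 477 bases, in an intron of the noncoding gene Gm15884. The hairpin of miR-141 also lies partly in an exon of the annotated gene Gm29008 on the same strand. Each cluster thus holds members of both seeds. On chromosome 1, the hairpin of miR-375 lies at 74900658 to 74900721 outside any annotated gene, with Cfap65 as the nearest protein-coding gene. That of miR-205 lies at 193507463 to 193507530 in an exon of the lincRNA 4631405K08Rik.

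All values below are normalised reads, the authors' read counts scaled by 1 factor per library. The most abundant member was miR-200b. In control replicates 1 to 5 it stood at 2778, 20271, 2841, 3688 and 3114 normalised reads. In Tsc1 mutant replicates 1 to 5 it stood at 1666, 3225, 1885, 4431 and 3917. Control replicate 2 lay far above all other libraries. Among the other 9, mutants held both the lowest and the highest value, so the genotypes overlapped on both sides. Its log2 fold change, mutant against control on the log2(value + 1) scale, was -0.68 ± 0.54 (SE; limma adjusted p = 0.543).

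The other members of the chromosome 4 cluster followed the same order of libraries in part. Controls held 2385, 11861, 1709, 1960 and 2227 normalised reads of miR-200a, the main carrier of the AACACUG seed. Mutants held 1200, 1952, 1472, 2122 and 2213. As for miR-200b, mutant replicates 1 and 3 were the lowest of the 10 libraries, and the other mutants lay among the controls. The log2 fold change of miR-200a was -0.74 ± 0.47 (SE; limma adjusted p = 0.428). The level of miR-429 was lower throughout, at 150, 731, 93.1, 95.9 and 131 normalised reads in controls. It was 76.5, 110, 79.9, 123 and 143 in mutants, again lowest in replicates 1 and 3, with a log2 fold change of -0.69 ± 0.51 (SE; limma adjusted p = 0.527).

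From chromosome 6, miR-200c, which shares its seed with miR-200b, was the third member by level. Controls held 237, 2535, 319, 316 and 232 normalised reads, and mutants 156, 234, 217, 297 and 272. Its log2 fold change was -0.89 ± 0.59 (SE; limma adjusted p = 0.444). Its cluster partner miR-141 was far scarcer, at 53.5, 392, 34.5, 28.6 and 29.8 normalised reads in controls and 27.8, 28.0, 34.7, 40.2 and 34.7 in mutants. Its log2 fold change was -0.80 ± 0.63 (SE; limma adjusted p = 0.543). The groups overlapped for both miRNAs.

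The pancreatic and epithelial miRNA miR-375 showed the widest gap between control replicate 2 and the rest. Controls held 32.0, 990, 38.8, 38.7 and 66.7 normalised reads. Mutants held 39.1, 27.2, 22.1, 41.6 and 55.6. Its log2 fold change of -1.16 ± 0.82 (SE; limma adjusted p = 0.509) had the largest size and the largest error of the 7. Near the limit of the libraries was miR-205, at 5.59, 81.8, 13.8, 10.1 and 7.18 normalised reads in controls and 5.21, 11.0, 7.36, 17.2 and 8.94 in mutants. The log2 fold change was -0.54 ± 0.62 (SE; limma adjusted p = 0.729). Outside control replicate 2, with 115 reads, these stood for only 6 to 16 reads of miR-205 per library, and 6 reads have an exact Poisson 95% interval of 2.20 to 13.1. Small differences in miR-205 between single libraries were therefore not detectable at this depth.

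**Figure D1:**
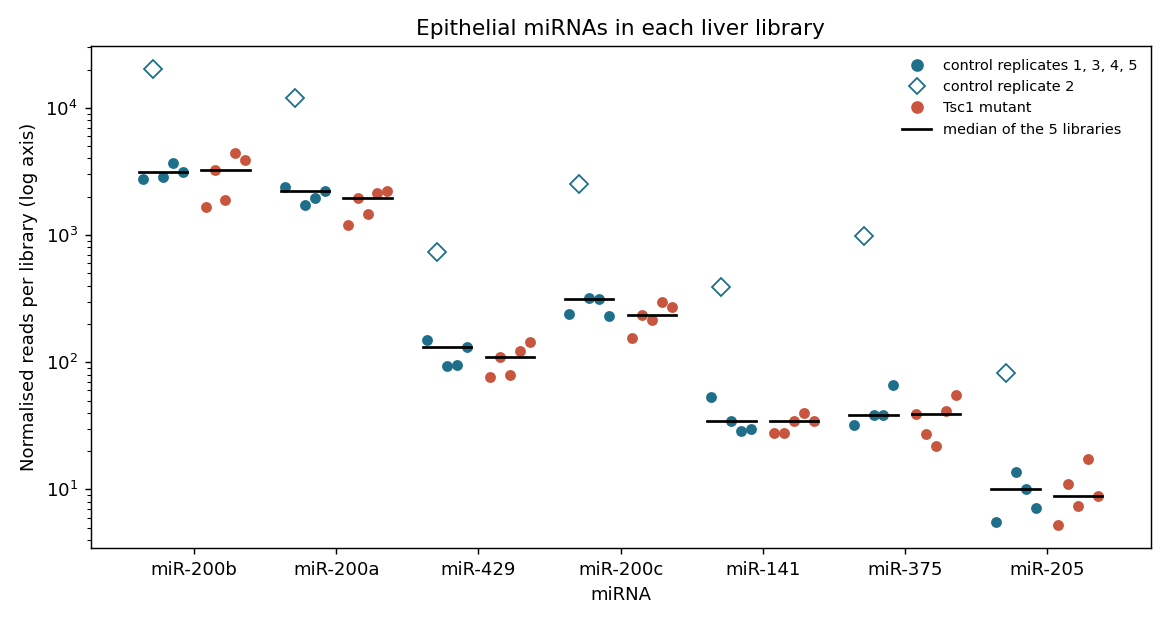
Normalised reads of the 7 miRNAs (log axis) in each of the 5 control and 5 Tsc1 mutant libraries, with the median of each group as a black line. Control replicate 2, the open diamond, lies above every other library for all 7 miRNAs, at 20271 normalised reads for miR-200b, while the remaining controls and the mutants overlap.

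With all 10 libraries, all 7 miRNAs had a fold change below 0 and 0 of the 7 passed the threshold of an adjusted p of 0.05, where 13.0% of the 285 miRNAs were called in either direction and 2.11% as lower. None of the 7 had an unadjusted limma p under 0.05, against 64 of the 285. The median log2 fold change was -0.74 over the 7 and -0.06 over all 285, of which 57.5% were below 0. In 0 of the 7 were the genotypes fully separated, against 12.6% of all miRNAs.

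Without control replicate 2 most of this difference was gone. The log2 fold change of miR-200b was then -0.13 (limma 95% interval -0.79 to 0.53), which reaches from 0.577 to 1.44 times the control level. For miR-200a it was -0.23 (-0.70 to 0.23), for miR-200c -0.25 (-0.75 to 0.25), for miR-429 -0.15 (-0.72 to 0.41) and for miR-141 -0.11 (-0.65 to 0.43). For miR-375 it was -0.26 (-0.97 to 0.45). The sign of miR-205 turned, to 0.08 (-0.74 to 0.89). Again 0 of the 7 were called, against 13.0% of all miRNAs, and 0 of the 7 had genotypes that did not overlap, against 14.7%. The smallest limma adjusted p among the 7 was 0.662. The median over the 7 was -0.15, beside -0.06 over all miRNAs.

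**Figure D2:**
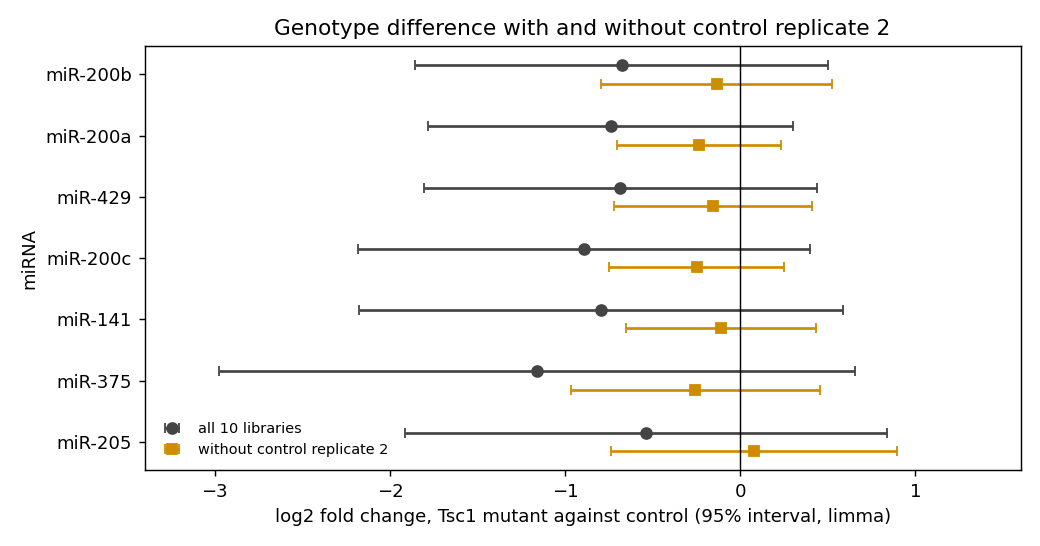
Log2 fold change of each miRNA, Tsc1 mutant against control, with its 95% interval from limma, for all 10 libraries (grey circles) and without control replicate 2 (orange squares). The grey points lie between -1.16 and -0.54 and the orange points between -0.26 and 0.08, and every interval spans 0.

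The reads of the 5 family members were also summed, as a description without a test. Controls held 5604, 35789, 4996, 6088 and 5734 normalised reads of the miR-200 family. Mutants held 3126, 5549, 3689, 7014 and 6579. The log2 difference of the sum was -0.71 ± 0.59 (SE) with all libraries and -0.18 ± 0.24 without control replicate 2, or 1.64-fold and 1.13-fold higher in controls. Without control replicate 2, the controls lay close together at 5606 ± 455 (SD, n = 4), and the mutants spread more widely at 5191 ± 1725 (SD, n = 5). Mutant replicates 1 and 3 lay below every control, and mutant replicates 4 and 5 above the other 4 controls. As a share of all miRNA reads, the family made up 0.415% of control replicate 2 (exact binomial 95% interval 0.411 to 0.419%). In the other 9 libraries it ranged from 0.0342% in mutant replicate 1 to 0.0754% in mutant replicate 4.

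Outside control replicate 2, the levels of the 7 miRNAs kept a largely fixed order. The reference sequences are 22 or 23 bases long where one was matched, and library preparation captures miRNAs unequally. The part of length or capture in this order was not tested. Over the 9 libraries miR-200b had 3060 ± 901 normalised reads (SD), miR-200a 1916 ± 388, miR-200c 253 ± 53.0 and miR-429 111 ± 27.0. Next came miR-375 at 40.2 ± 13.8, miR-141 at 34.6 ± 8.20 and miR-205 at 9.60 ± 3.94. Every neighbour in this order was higher than the next in 9 of 9 libraries, with the exception of miR-375 and miR-141. That pair did not differ beyond its spread, with miR-375 higher in 6 of 9. In control replicate 2, miR-375 also exceeded miR-429.

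In control replicate 2 all 7 miRNAs were at their highest among the 10 libraries, where 10.5% of all 285 miRNAs were. Compared with the median of the other 4 controls, miR-375 was 25.5-fold higher there, miR-141 12.2-fold, miR-205 9.47-fold and miR-200c 9.16-fold. The members of the chromosome 4 cluster differed less, at 6.81-fold for miR-200b, 6.43-fold for miR-429 and 5.67-fold for miR-200a. On the log2(value + 1) scale the differences ran from 2.50 for miR-200a to 4.64 for miR-375, with a median of 3.12, beside 0.01 over all miRNAs. By this measure the 7 held ranks 1, 4, 6, 7, 9, 10 and 11 of 285. Of the 12 miRNAs above 2 on this scale, the other 5 were miR-5105, miR-1a, miR-133a, miR-10b and miR-543, named after their values were seen. The gap rests on many reads, since the 7 miRNAs had between 115 reads for miR-205 and 28510 for miR-200b in that library.

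**Figure D3:**
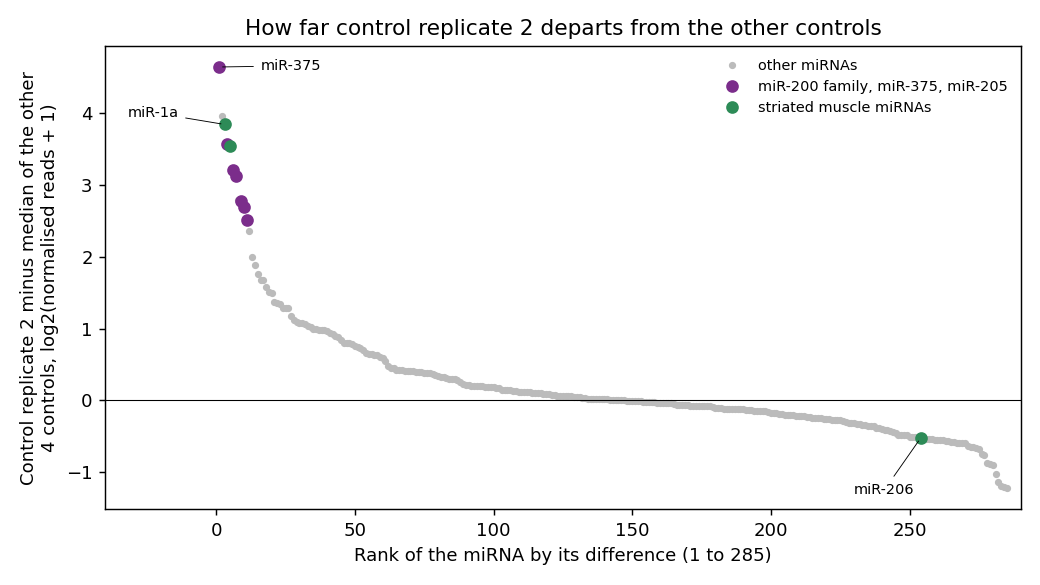
Difference of control replicate 2 from the median of the other 4 controls, log2(normalised reads + 1), for all 285 miRNAs in order of size. The miR-200 family, miR-375 and miR-205 (purple) take 7 of the first 11 ranks, beside the striated muscle miRNAs miR-1a and miR-133a (green), while miR-206 lies at rank 254.

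Among the marker lists of other tissues, 2 of 3 striated muscle miRNAs were also far higher in that library, while most other markers were not. On the log2 scale, miR-1a differed from the median of the other controls by 3.84 and miR-133a by 3.54. The smooth muscle miRNA miR-143 differed less, by 1.03. Markers of other lists came near this, with 1.09 for the leukocyte miRNA miR-223 and 0.97 for the neural miRNA miR-9. Of 8 names listed for striated muscle, 3 had a row, and their sum was 5638 normalised reads in control replicate 2. In the other controls it was 268 to 559, and in mutants 151 to 919. The heart and skeletal muscle miRNA miR-1a stood at 5534 there against 133 to 897 in the other 9 libraries. Likewise miR-133a stood at 99.5 against 0.849 to 16.4, whereas miR-206, typical of skeletal muscle, was at 4.98 and within the 4.00 to 20.5 of the other libraries. Of 5 listed stellate and smooth muscle names, with 6 rows, the sum was 369439 in control replicate 2 against 168823 to 240522 in the other controls and 136276 to 249924 in mutants. It was carried by miR-143, at 346370 against 117106 to 221382 in the other 9 libraries. The rest of that list lay close to the other controls, with miR-145 at 982 against 303 to 4489, miR-199a-3p at 11367 against 9152 to 12977, and only miR-199a-5p, at 4873, above their highest value of 4713. The median of the list's differences from the other controls was 0.20 on the log2 scale, beside 3.54 for striated muscle. The sums of 4 more lists lay inside the range of the other controls. The endocrine and neural list, with 6 of 7 names in the table, summed to 18447 against 17851 to 24701, with 14621 to 18056 in mutants. The leukocyte list summed to 22245 against 18095 to 31649 (mutants 17651 to 25700), and the endothelial list to 152213 against 113035 to 160119 (mutants 114892 to 160253). The erythroid list summed to 5358 against 3886 to 5924 (mutants 3431 to 6533). Within these 4 lists, the neural miRNA miR-9 and the lymphocyte miRNA miR-150 were highest of the 10 libraries there, at 69.7 and 195. Of 3 listed exocrine pancreas names, 0 had a row. The part of striated or smooth muscle in the values of the 7 miRNAs was not tested.

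Other epithelial miRNAs did not all follow. Of 8 listed names 6 had a row, and 0 of the 6 were called in either direction, against 13.0% of all miRNAs. Their sum was 19358 normalised reads in control replicate 2, inside the 19048 to 25648 of the other controls, while mutants held 17909 to 20582. That sum was mostly miR-203. The median of the list's differences from the other controls was 0.93 on the log2 scale. The largest was that of miR-34c, at 1.29, although its 325 normalised reads lay inside the 95.7 to 397 of the other controls. The skin and epithelial miRNA miR-203 was at 11156, below the 11933 to 19310 of the other controls, and miR-31 at 2954 lay within their range. The 3 miRNAs of the miR-183 cluster, found in sensory and other epithelia, were at their highest there, with miR-96 at 201 against 64.3 to 115, miR-182 at 3755 against 1403 to 2572 and miR-183 at 968 against 293 to 725 in the other 9. The hepatocyte list, by contrast, summed to 4155173 in control replicate 2, within the 3424625 to 5492139 of the other controls. Mutants held 3713771 to 4565320.

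The make-up of the family was compared library by library, since a ratio within a library does not depend on its scaling. Within the chromosome 4 cluster, the ratio of miR-200a to miR-429 varied little and that of miR-200b to miR-200a more. Each library held 15.5 to 20.4 reads of miR-200a per read of miR-429, and the mean was 17.6 ± 1.86 among controls and 16.9 ± 1.30 among mutants (SD, 5 libraries each), or 17.9 ± 1.97 among controls without control replicate 2 (SD, n = 4). That library, at 16.2, lay inside the range. Reads of miR-200b per read of miR-200a ran from 1.16 in control replicate 1 to 2.09 in mutant replicate 4, with 1.71 in control replicate 2. The group values of 1.56 ± 0.28 for controls and 1.64 ± 0.32 for mutants (SD, 5 libraries each) differed by less than the spread between libraries, as did the 1.53 ± 0.31 of controls without control replicate 2 (SD, n = 4). In 10 of 10 libraries miR-200b exceeded miR-200a.

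By seed, the AACACUG group made up 36.9 ± 4.44% of the family among controls and 36.2 ± 4.01% among mutants (SD, 5 libraries each), and 37.6 ± 4.82% among controls without control replicate 2 (SD, n = 4). The rest carried AAUACUG. Control replicate 2 was at 34.2%, within the 30.8 to 43.5% of the other 9 libraries. The division between the seeds in that library was thus inside the usual range, although its family sum was several times that of the others.

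By cluster, control replicate 2 did lie outside the range of the others. The chromosome 6 members made up 8.18% of family reads there, against 4.56 to 7.08% in the other 9 libraries. By genotype the shares were 6.13 ± 1.47% for controls and 5.37 ± 0.94% for mutants (SD, 5 libraries each), and 5.62 ± 1.07% in controls without that library (SD, n = 4). Relative to the family, miR-375 stood at 27.7 reads per 1000 family reads in control replicate 2 and at 4.90 to 12.5 in the others. For miR-205 the figure was 2.28, inside the 0.998 to 2.76 of the others. The additional family reads of that library, 30296 normalised reads over the medians of the other controls, were 57.1% miR-200b and 8.64% chromosome 6 members.

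**Figure D4:**
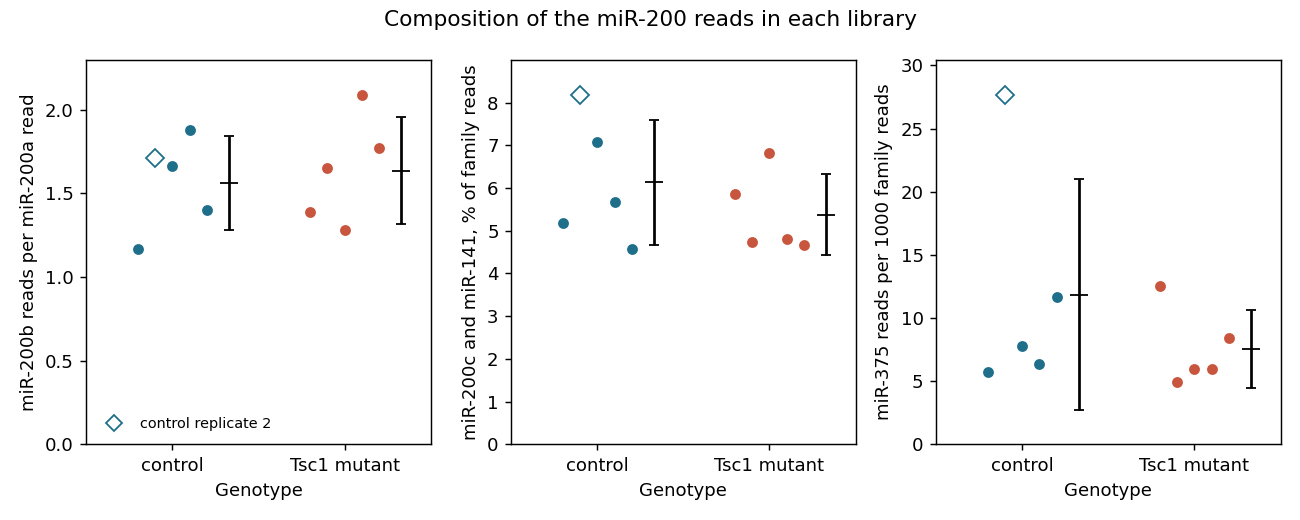
Reads of miR-200b per read of miR-200a (left), miR-200c and miR-141 as a percentage of family reads (middle), and miR-375 reads per 1000 family reads (right), 1 point per library, with the mean ± SD of the 5 libraries of each genotype. Control replicate 2, the open diamond, lies among the others on the left, at 1.71, and above them in the middle, at 8.18%, and on the right, at 27.7.

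The 5 other miRNAs most like the summed family over all 10 libraries, by the Pearson correlation of log2(value + 1), were miR-1a (r = 0.91), miR-96 (0.90), miR-182 (0.85), miR-10b (0.84) and miR-150 (0.73). They were picked for this likeness, so no test applies. The likeness rested in part on control replicate 2. Over the other 9 libraries r was 0.64 for miR-1a, 0.72 for miR-96, 0.60 for miR-182, 0.33 for miR-10b and 0.42 for miR-150. Over these 9 the order was headed by miR-338-5p (0.78), miR-195 (0.75), miR-125a-5p (0.73), miR-125a-3p (0.73) and miR-96 (0.72). Their Spearman rank correlations were lower, at 0.43, 0.57, 0.42, 0.50 and 0.65 in the same order. This list, too, was picked for likeness.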

How the data were processed

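Mature miRNAs were measured by small RNA sequencing in 10 mouse liver samples, and columns were tied to samples through library numbers that the labels repeat. The unit is a normalised signal that the authors deposited after dividing reads by a library factor, with DESeq as the tool named in the submitters' processing notes. Aligner, annotation and build: not given in the sources used here. All values of a column were whole multiples of 1 step within 0.001, taken as what 1 read is worth. Depths, read numbers and their intervals therefore rest on reads inferred from these steps, not on deposited counts. These intervals cover counting error within a library only. Reads carry no molecular identifiers, so amplified copies of the same molecule could not be told apart, and the counting error may be larger than shown. The labels do not say that each library is a separate animal, and p-values measure the spread between libraries.

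Values were tested as log2(value + 1) with limma 3.58.1 in R 4.3.3, with genotype as the only term, empirical Bayes moderation and an intensity trend, over the 285 miRNAs with a mean of at least 5. Benjamini-Hochberg adjustment covered all 285. The fit was tested on simulated data. The text names every member, the 5 miRNAs most like the family with and without control replicate 2, and listed cell type markers. Members, lists and the omission of control replicate 2 were chosen with earlier results of these data known. Library numbers run consecutively within each genotype, so any effect of that order cannot be told apart from genotype. Hairpin positions are from GENCODE M21 (GRCm38). Figures were drawn with matplotlib 3.10.9. Alternatives were other pseudocounts, filters, scalings and models, a replicate block and left-out libraries. Chosen after the data were seen were voom on whole reads and the joint omission of control replicate 2 and the replicates 1.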

Additional observations from a re-analysis of the deposited data

Results flagged for a closer look

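In 10 of 30 groups of 5 values, 1 library lay farther from the other 4 than a 95% limit on the gap allows, where chance gives about 1 in 20 groups. All 10 are control replicate 2, and they overlap because the sums hold the single miRNAs. Over the 10 libraries the 7 miRNAs also had pairwise Pearson r of 0.84 to 0.99, so the 10 flags are not separate events. Much of this likeness rested on control replicate 2. Over the 9 libraries without it, r ran from -0.15 for miR-141 and miR-375 to 0.93 for miR-200a and miR-429. Since control replicate 2 had been singled out from earlier results of these data, its flags are a description. The chance share is no yardstick for them. That library exceeded the rest of its group with 20271 normalised reads of miR-200b, 11861 of miR-200a, 2535 of miR-200c, 990 of miR-375, 731 of miR-429, 392 of miR-141 and 81.8 of miR-205. The same held for the sum of the miR-200 family, 35789, for the sum of all 7 miRNAs, 36861, and for miR-375 per 1000 family reads, 27.7. No mutant group held such a library.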

How the results depend on the processing

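Under 23 other settings, 0 of 160 fold changes of the 7 miRNAs were called. The setting without a filter repeated the main fit, since all 285 miRNAs had a mean of at least 5. Over the whole table, the 23 settings always called some miRNAs. The fewest were 28 higher and 2 lower, without mutant replicate 4, and the most 40 higher and 23 lower, with array weights. For the 7 miRNAs, the 146 fold changes from settings that kept control replicate 2 were all below 0. Without that library miR-205 turned to 0.079 (-0.83 to 0.079 over single libraries left out), and without it and the replicates 1 of both groups miR-200b turned to 0.0044, miR-141 to 0.14, miR-429 to 0.079 and miR-205 to 0.074. With array weights the median of the 7 was -0.31. The log2 difference of the family sum ran from -0.89 to -0.18 when single libraries were left out, and was -0.01 without control replicate 2 and the replicates 1. The number of miRNAs called lower, 6 over the whole table, was 23 with array weights, 11 without the replicates 1, 13 without these and control replicate 2, and 2 to 10 with single libraries left out (10 without control replicate 1, 3 without control replicate 3 or 5, 2 without mutant replicate 4). The causes were not tested. With the replicate number as a block, 10 were called lower. The deviations of same-numbered libraries correlated at 0.81 for the replicates 1 and at -0.02 to 0.46 for the others, with replicates 3 and 5 near 0. Since only 2 of 5 controls correlated best with their own number, the numbers were not taken as pairs. The replicates 1 had the lowest array weights, 0.179 for the control and 0.386 for the mutant, followed by 0.544 for control replicate 2. A planned scaling by trimmed means and 2 planned count tests were not run, because reads were inferred and low values were too few for the check that count tests required here, so voom on the inferred reads was added.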
